A study of Mus musculus with 6 samples.

Results

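Malat1, Neat1, Kcnq1ot1, Rn7sk, Rpph1 and Rmrp are 6 noncoding RNAs that act in the nucleus or, for Rmrp, mainly the nucleolus. They were chosen by name, and by their levels in these same libraries, from a deposited count table that holds 26982 other genes, and all 6 were found there. The 3 Hes1 KO libraries and the 3 WT libraries came from C57BL/6 mice, and their label names mesenchymal stromal cells of the bone marrow. Hes1 KO mice came from crosses of floxed Hes1 mice, back-crossed more than 10 times, with Prx1Cre, a transgene that makes Cre recombinase under a Prrx1 promoter in limb bud mesenchyme and part of the craniofacial mesenchyme. The protocols speak of heterozygous floxed animals, but neither the number of deleted alleles in Hes1 KO, nor the age, nor any floxed allele or Cre in WT mice is stated in the labels. The series' text also names drug-resistant lines and a treatment, which no sample label carries. Libraries were made from total RNA with a stranded kit that selects polyadenylated RNA.

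Malat1 and Neat1 are long RNAs made by RNA polymerase II from neighbouring genes. Malat1 lies in nuclear speckles, where splicing factors gather, and Neat1 is the scaffold of paraspeckles. Kcnq1ot1 is a very long antisense RNA of an imprinted domain, made from the paternal allele and known for silencing genes in cis. Rn7sk, Rpph1 and Rmrp are short RNAs made by RNA polymerase III, which ends its transcripts in a run of U and adds no poly(A) tail. Rn7sk holds the transcription elongation kinase P-TEFb inactive together with Hexim1 or Hexim2, Rpph1 is the RNA of RNase P, which trims precursor tRNA, and Rmrp is the RNA of RNase MRP, which cuts precursor ribosomal RNA. RNase P also cuts the 3′ end of nascent Malat1, which leaves an A-rich tract at the end of the mature RNA in place of a poly(A) tail, and the long isoform of Neat1 ends in the same way.

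The sequences of the short RNAs are shown first because the library kit selects on poly(A). All are read 5′ to 3′ on the transcribed strand, which is the minus strand for each of the 6 genes. They come from GENCODE M21, with positions on GRCm38. Per the submitters' processing notes the counts were made on GRCm39. Capitals mark every run of at least 3 A. Shown are the first 300 of 331 bases of Rn7sk at chr9:78175334-78175633, the first 300 of 319 bases of Rpph1 at chr14:50807468-50807767 and all 271 bases of Rmrp at chr4:43492788-43493058.
Rn7sk: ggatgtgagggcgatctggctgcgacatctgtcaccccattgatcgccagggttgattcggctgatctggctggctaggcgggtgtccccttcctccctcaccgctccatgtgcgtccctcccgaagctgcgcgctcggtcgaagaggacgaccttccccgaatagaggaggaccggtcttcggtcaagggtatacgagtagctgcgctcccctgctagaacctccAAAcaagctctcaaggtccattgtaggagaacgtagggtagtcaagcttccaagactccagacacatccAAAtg
Rpph1: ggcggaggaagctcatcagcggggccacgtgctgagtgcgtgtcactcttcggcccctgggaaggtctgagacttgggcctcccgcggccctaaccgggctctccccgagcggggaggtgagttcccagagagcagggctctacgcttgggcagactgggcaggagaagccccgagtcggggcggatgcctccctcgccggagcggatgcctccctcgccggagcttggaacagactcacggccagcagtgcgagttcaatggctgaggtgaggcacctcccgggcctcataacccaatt
Rmrp: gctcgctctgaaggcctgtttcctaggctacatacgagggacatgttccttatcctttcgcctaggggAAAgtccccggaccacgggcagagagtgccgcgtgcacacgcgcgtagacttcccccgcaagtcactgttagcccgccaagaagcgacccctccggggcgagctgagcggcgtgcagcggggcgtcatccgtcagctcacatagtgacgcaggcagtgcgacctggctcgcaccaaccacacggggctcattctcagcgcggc
The longest run of A was 3 bases in Rn7sk and Rmrp and 2 bases in Rpph1. A run of at least 6 A, searched as AAAAAA on the transcribed strand alone, was found in 10.6% to 11.1% of GENCODE transcripts of similar length (within 10% of each). None of the 3 held the polyadenylation signal AATAAA in its last 50 bases, against 26.6% of all 141767 transcripts that held it there.

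The long RNAs carry A-rich stretches of their own. The first sequence below, at chr19:5795944-5796043, holds the A-rich tract of Malat1, of which only the longest run of A is in capitals. The last 60 bases of the annotated Malat1 gene, at chr19:5795690-5795749, have AATAAA in capitals. The end of the long Neat1 isoform, at chr19:5824708-5824787, has its A-rich end in capitals, and the end of the short isoform, at chr19:5842307-5842366, has AATAAA in capitals. The last sequence is the longest run of A inside Kcnq1ot1, at chr7:143226916-143227015.
Malat1 tract: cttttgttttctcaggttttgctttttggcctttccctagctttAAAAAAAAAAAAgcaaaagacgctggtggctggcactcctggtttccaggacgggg
Malat1 gene end: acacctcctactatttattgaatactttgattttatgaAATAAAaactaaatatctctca
Neat1 long isoform end: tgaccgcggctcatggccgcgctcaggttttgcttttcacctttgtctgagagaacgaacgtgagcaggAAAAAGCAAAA
Neat1 short isoform end: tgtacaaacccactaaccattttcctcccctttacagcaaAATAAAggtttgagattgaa
Kcnq1ot1 internal run: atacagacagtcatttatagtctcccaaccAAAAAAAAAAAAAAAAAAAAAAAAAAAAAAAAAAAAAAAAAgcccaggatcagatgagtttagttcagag
The run is 12 A long in Malat1 and 41 A long in Kcnq1ot1. Among transcripts of similar length, each set counting the RNA itself, 87.4% of 1782 for Malat1 and all 4 for Kcnq1ot1 held a run of at least 6 A. Runs of at least 6 A are thus common in RNAs of that size. How often runs as long as 12 or 41 A occur was not counted.

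The libraries differed in ways that bear on every value below. Hes1 KO replicates 1, 2 and 3 held 22131465, 21170047 and 20563116 counts, and WT replicates 1, 2 and 3 held 66167, 5812598 and 12109170. In WT replicate 1 a single count equals 15.1 CPM (each count divided by its library's total and put on the usual per-million scale), and 0 counts allows a level of up to 45.3 CPM (3 counts of the total; this limit and the Wilson 95% intervals below cover counting error only). Counts of Hes1, which the knockout targets, were 185, 220 and 255 in Hes1 KO (8.36, 10.4 and 12.4 CPM), against 0, 310 and 345 in WT (0, 53.3 and 28.5 CPM). Of 12 stromal markers, the sum was 48.4 to 75.0 CPM in Hes1 KO, against 29.3 to 69.2 CPM in WT, and Prrx1 had 0 to 2 counts in every library, so the labelled cell type was barely seen. The sum of 12 neutrophil markers was 4.84% to 13.1% of counts in Hes1 KO, against 0.0357% to 1.51% in WT. Of these markers Elane, Mpo and Csf3r overlapped between the groups in CPM. Elane was at 782, 294 and 781 CPM in Hes1 KO, against 1995, 323 and 3.30 CPM in WT. The other neutrophil markers were higher in each Hes1 KO library than in any WT library. The sum of 12 erythroid markers was 42.8% in WT replicate 3 and at most 0.367% in the others. Macrophage markers summed to 1.05% to 2.05% of counts in Hes1 KO, against 0.0211% to 0.481% in WT. In Hes1 KO most of that sum was Lyz2, at 7970, 18329 and 9426 CPM of 10517, 20500 and 11527 CPM. Mpeg1, Csf1r and Cd68 were higher in each Hes1 KO library than in WT replicates 2 and 3. Their highest library was however WT replicate 1, at 2841, 937 and 272 CPM. The sum of 10 B lineage markers was 0.106%, 0.105% and 0.176% of counts in Hes1 KO, against 0.0227%, 0.586% and 0.307% in WT, so WT replicate 2 was the highest library for them as well. Scaling factors by the trimmed mean of M values (TMM) lay between 0.975 and 1.17 for Hes1 KO, whereas WT replicates 1, 2 and 3 had 1.60, 1.21 and 0.397. The part of these differences in the levels below was not tested, and in bulk libraries fewer cells that make an RNA and less of it per cell cannot be told apart. The labels do not say whether libraries came from separate animals, so the spread between them may be technical.

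Malat1 drew the most counts of the 6 in every library. It had 45894, 34834 and 42105 counts in Hes1 KO, or 2074, 1645 and 2048 CPM, against 221, 80767 and 23743 counts in WT, or 3340, 13895 and 1961 CPM. WT replicate 2 stood 4.16-fold above the next library, WT replicate 1 (Wilson 95% interval 2928 to 3809 CPM), and WT replicate 3 lay within the Hes1 KO range, so the groups overlapped in CPM. The means were 1922 ± 240.1 CPM in Hes1 KO, against 6399 ± 6529 CPM in WT (SD, n = 3 each). Divided by the TMM factors, Malat1 was at 1769, 1690 and 1795 CPM in Hes1 KO, against 2093, 11592 and 4951 CPM in WT, with no overlap. Malat1 was the 1 RNA of the 6 whose groups stood apart on that scale, where 27.7% of all 14756 genes tested did so. The separation thus rests on the TMM factors of both groups. Even undivided, WT replicate 3 at 1961 CPM lies above the scaled Hes1 KO values of 1769, 1690 and 1795 CPM.

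Neat1 had 7690, 6892 and 7501 counts in Hes1 KO, or 347, 326 and 365 CPM, against 35, 5983 and 2145 counts in WT, or 529, 1029 and 177 CPM. The Hes1 KO libraries differed by at most 1.12-fold, while WT replicate 2 was the highest and WT replicate 3 the lowest of all 6, so the WT values lay on both sides of the Hes1 KO values. The count of WT replicate 1 gave a Wilson 95% interval of 380.4 to 736 CPM. For each Neat1 count there were 5.97, 5.05 and 5.61 Malat1 counts in Hes1 KO, against 6.31, 13.5 and 11.1 in WT. The ratio was thus more than 10 in WT replicates 2 and 3 and between 5 and 7 in the other 4 libraries.

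Kcnq1ot1 had 1895, 825 and 1540 counts in Hes1 KO, or 85.6, 39.0 and 74.9 CPM, against 2, 2691 and 692 counts in WT, or 30.2, 463 and 57.1 CPM. WT replicate 2 was 5.41-fold above the next library, Hes1 KO replicate 1, and WT replicate 3 lay within the Hes1 KO range. The 2 counts in WT replicate 1 leave an interval of 8.29 to 110.2 CPM, which spans all Hes1 KO values. Kcnq1ot1 overlaps Kcnq1 on the other strand, and the strand setting of the counting is not stated. Reads of both genes may therefore be mixed in its counts.

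**Figure D1:**
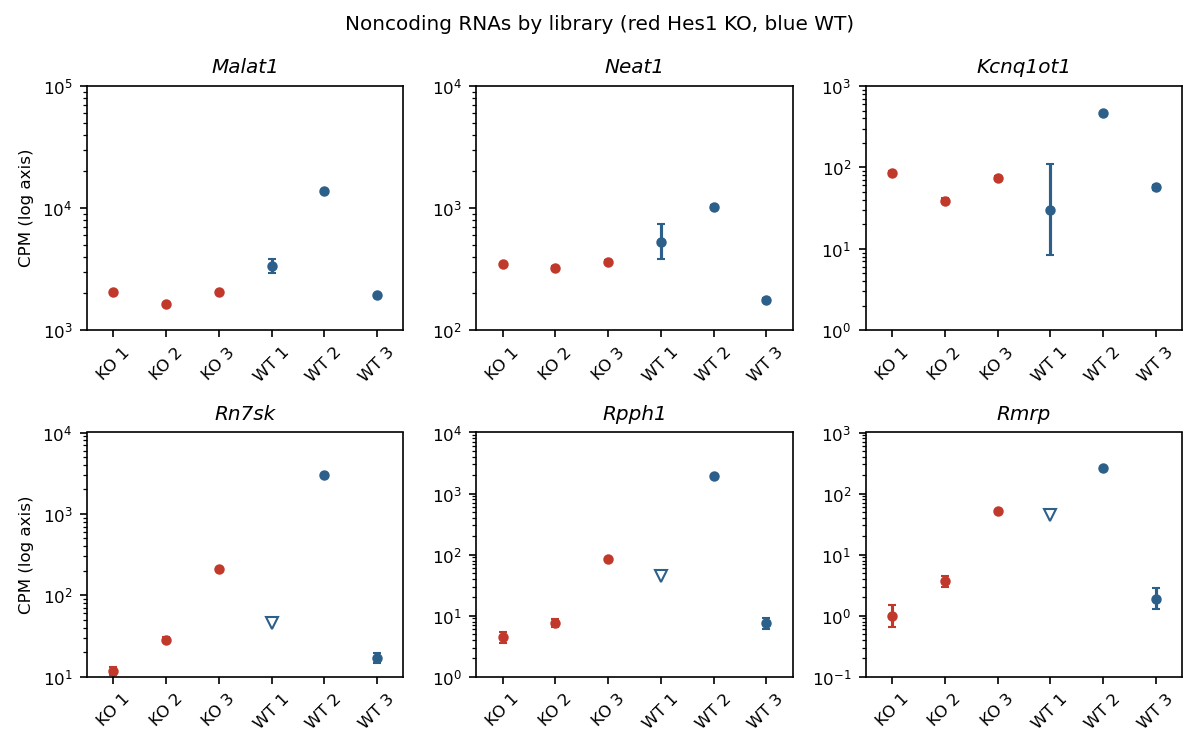
Level of each RNA in each library in CPM on a log axis, with Hes1 KO in red and WT in blue. Points are single libraries with Wilson 95% intervals, and open triangles mark 0 counts at the limit of 45.3 CPM. WT 2 is highest in all 6 panels, and KO 3 is the second highest counted library for Rn7sk, Rpph1 and Rmrp alone.

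The 3 short RNAs varied far more between libraries than the long ones, and within Hes1 KO as well as within WT. Rn7sk had 260, 604 and 4369 counts in Hes1 KO, or 11.7, 28.5 and 212 CPM, against 0, 17537 and 205 counts in WT, or 0, 3017 and 16.9 CPM. Hes1 KO replicate 3 was 18.1-fold above Hes1 KO replicate 1 and 7.45-fold above Hes1 KO replicate 2. WT replicate 2 was in turn 14.2-fold above Hes1 KO replicate 3 and 178-fold above WT replicate 3.

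Rpph1 had 98, 163 and 1753 counts in Hes1 KO, or 4.43, 7.70 and 85.2 CPM, against 0, 11404 and 91 counts in WT, or 0, 1962 and 7.51 CPM. WT replicate 2 was 23.0-fold above Hes1 KO replicate 3 and 261-fold above WT replicate 3, the widest gaps of the 6 RNAs. Hes1 KO replicate 3 was 19.3-fold and 11.1-fold above Hes1 KO replicates 1 and 2.

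Rmrp had 22, 77 and 1053 counts in Hes1 KO, or 0.994, 3.64 and 51.2 CPM, against 0, 1527 and 23 counts in WT, or 0, 263 and 1.90 CPM. Here Hes1 KO replicate 3 was 51.5-fold above Hes1 KO replicate 1 and 14.1-fold above Hes1 KO replicate 2, while WT replicate 2 was 5.13-fold above Hes1 KO replicate 3. Among the 5 libraries other than WT replicate 1, all 3 short RNAs had the same order in CPM from high to low: WT replicate 2, Hes1 KO replicate 3, Hes1 KO replicate 2, WT replicate 3 and Hes1 KO replicate 1. Divided by the TMM factors, Hes1 KO replicate 2 lay below WT replicate 3 for each, at 29.3 against 42.7 CPM for Rn7sk and 3.74 against 4.80 CPM for Rmrp. The 0 counts of WT replicate 1 say little, since the limit of 45.3 CPM lies above 3 of the 5 other libraries for each of them.

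Hes1 KO replicate 3 had no such excess in the long RNAs. Its Malat1, Neat1 and Kcnq1ot1 levels were 0.987-fold, 1.05-fold and 0.875-fold those of Hes1 KO replicate 1. As a description over 16190 genes, 47 had a larger excess than Rn7sk in Hes1 KO replicate 3 over the higher of the other Hes1 KO libraries, 32 had a larger one than Rpph1 and 28 than Rmrp. For the long RNAs 3522 genes (Neat1) to 9442 genes (Kcnq1ot1) had a larger excess. In WT replicate 2, set against the highest of the 4 other deeper libraries, 54 genes exceeded Rpph1, 178 exceeded Rn7sk, 544 exceeded Malat1, 718 exceeded Kcnq1ot1, 771 exceeded Rmrp and 1667 exceeded Neat1. These ranks use the values by which the RNAs were chosen and are given without a test.

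The ratio of Rn7sk to Rpph1 varied far less than the sum of the short RNAs. Rn7sk, Rpph1 and Rmrp together were at 17.2, 39.9 and 349 CPM in Hes1 KO, against 0, 5242 and 26.3 CPM in WT. For each Rpph1 count there were 2.65, 3.71 and 2.49 Rn7sk counts in Hes1 KO, against 1.54 and 2.25 in WT replicates 2 and 3. The counts of Rpph1 per Rmrp count ranged more widely, at 4.45, 2.12 and 1.66 in Hes1 KO, against 7.47 and 3.96 in WT replicates 2 and 3. By contrast there were 177, 57.7 and 9.64 Malat1 counts for each Rn7sk count in Hes1 KO, against 4.61 and 116 in WT replicates 2 and 3. The 3 short RNAs made up 0.68%, 1.94% and 12.3% of the counts of all 6 RNAs in Hes1 KO, against 0%, 25.4% and 1.19% in WT.

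The order of the 6 RNAs by level changed with the library once levels were divided by length. In CPM per kb of RefSeq gene span, Hes1 KO replicate 1 had Malat1 at 297, Rn7sk at 35.4, Neat1 at 16.7, Rpph1 at 13.6, Rmrp at 3.61 and Kcnq1ot1 at 1.03. In Hes1 KO replicate 3 Rn7sk led with 640 CPM per kb, followed by Malat1 at 293, Rpph1 at 262 and Rmrp at 186. In WT replicate 2 Rn7sk reached 9088 and Rpph1 6037 CPM per kb, above Malat1 at 1990 CPM per kb and Rmrp at 955 CPM per kb. In WT replicate 3 Malat1 was first again at 281 CPM per kb, with Rn7sk at 51.0. The span of Neat1 is that of its long isoform, so its level per kb is too low wherever the short isoform is the main product.

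All 6 RNAs passed the filter on low counts, and the comparison of Hes1 KO with WT gave negative log2 fold changes for each with all 6 libraries. They are a description, since the RNAs were chosen with these levels known. The log2 fold change was -1.83 (SE 1.10) for Malat1, -0.79 (SE 0.49) for Neat1 and -1.64 (SE 0.86) for Kcnq1ot1. For the short RNAs it was -3.51 (SE 2.05) for Rn7sk, -4.27 (SE 2.14) for Rpph1 and -2.24 (SE 1.82) for Rmrp. edgeR called 0 of 14756 genes with Benjamini-Hochberg adjustment (0% called), with 2200 genes at an unadjusted p under 0.05, while DESeq2 called 832.

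For the short RNAs the sign turned without WT replicate 2. Without that library the log2 fold changes were 1.42 for Rn7sk, 1.06 for Rpph1 and 1.96 for Rmrp, and with WT replicate 3 as the only WT library they were 0.87, 0.66 and 1.84. Without Hes1 KO replicate 3 they were -5.44, -6.57 and -5.07. The long RNAs kept a negative sign in each of these fits: without WT replicate 2 the values were -1.14 for Malat1, -0.41 for Neat1 and -0.68 for Kcnq1ot1. Those values include the TMM factor of WT replicate 3, where the CPM alone of Malat1 and Kcnq1ot1 lay within the Hes1 KO range and that of Neat1 below it.

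**Figure D2:**
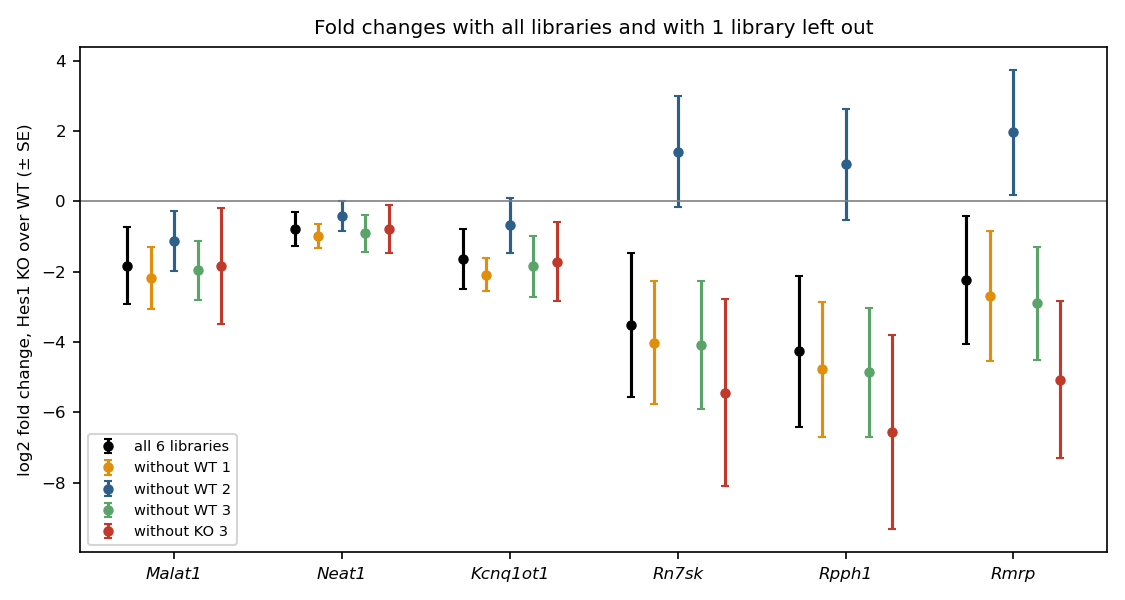
log2 fold change of Hes1 KO over WT (± SE, edgeR) for each RNA, with all 6 libraries and with 1 library left out. Rn7sk, Rpph1 and Rmrp lie below 0 in every fit shown but the 1 without WT 2, where they are at 1.06 to 1.96, while Malat1, Neat1 and Kcnq1ot1 lie below 0 in all 5.

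Other RNAs without a poly(A) tail were then set beside the short RNAs. Rn7s1 and Rn7s2, genes of the RNA polymerase III product 7SL, the RNA of the signal recognition particle, summed to 8.54, 23.1 and 96.8 CPM in Hes1 KO, against 0, 520 and 28.1 CPM in WT. WT replicate 2 and Hes1 KO replicate 3 were again the highest libraries, in that order. The log2 fold change of Rn7s2 was -2.71 (SE 1.12) and that of Rn7s1 -2.45 (SE 1.08) without WT replicate 1, with adjusted p of 0.133 and 0.149 (Benjamini-Hochberg over all genes, edgeR), so neither passed. Near-identical copies of Rn7sk, Rn7s1 and Rn7s2 lie elsewhere in the genome, so the division of reads among copies is uncertain.

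Of 14 listed small structural RNAs, 10 were in the table and 9 entered the fit without WT replicate 1, where 4 had positive and 5 negative log2 fold changes and 0 passed. Terc, the template RNA of telomerase, had 8, 1 and 14 counts in Hes1 KO, against 0, 42 and 2 in WT. Rnu12, a spliceosomal RNA of the minor class, had 13, 7 and 33 counts in Hes1 KO, against 0, 74 and 2 in WT. Rnu11, its partner in the minor spliceosome, was higher in each Hes1 KO library than in WT replicates 2 and 3, at 5.60, 4.11 and 5.64 CPM in Hes1 KO, against 0, 0.516 and 0.908 CPM in WT. Not all short RNAs therefore peaked in WT replicate 2.

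Replication-dependent histone genes, whose mRNA ends in a stem-loop and carries no poly(A) tail, were added after their values were seen. The sum over 64 such genes was 345, 328 and 425 CPM in Hes1 KO, against 287, 5800 and 115 CPM in WT. WT replicate 2 had the highest level for 58 of the 64, but the share of all genes highest in that library was not counted. Hes1 KO replicate 3 differed from the other Hes1 KO libraries by less than 1.5-fold in the sum. Vaultrc5, a vault RNA made by RNA polymerase III, had 46, 31 and 47 counts in Hes1 KO, against 0, 4 and 4 in WT. The excess of Hes1 KO replicate 3 was thus seen for Rn7sk, Rpph1, Rmrp, Rn7s1 and Rn7s2, and not for Vaultrc5. At low counts it was also seen for Rny1, with 10, 5 and 26 counts in Hes1 KO, against 0, 5 and 1 in WT. Rny3 likewise had 4, 4 and 21 counts in Hes1 KO, against 0, 7 and 0 in WT. Terc and Rnu12 too had their highest Hes1 KO count in replicate 3.

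Wider classes varied less between libraries than the short RNAs did. Small nucleolar RNA summed to 297, 221 and 345 CPM in Hes1 KO, against 484, 721 and 117 CPM in WT. Long noncoding RNA other than the 6 described here summed to 11245, 13677 and 26402 CPM in Hes1 KO, against 13466, 42127 and 33452 CPM in WT. Among protein-coding counts, genes spanning over 100 kb took between 7.86% and 9.87% for Hes1 KO, whereas WT replicates 1, 2 and 3 had 10.8%, 17.1% and 6.46%. Small nuclear RNA other than Rn7sk summed to 53.6, 48.7 and 192 CPM in Hes1 KO, against 30.2, 275 and 28.7 CPM in WT, again with WT replicate 2 and Hes1 KO replicate 3 highest. Genes of the classes tRNA and rRNA, whose counts came mostly from mitochondrial genes, had no peak in WT replicate 2. The tRNA sums were 452, 380 and 373 CPM in Hes1 KO, against 1315, 193 and 169 CPM in WT. For rRNA the sums were 3282, 5796 and 4168 CPM in Hes1 KO, against 680, 2072 and 5430 CPM in WT. The part of these classes in the levels of the 6 RNAs was not tested.

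**Figure D3:**
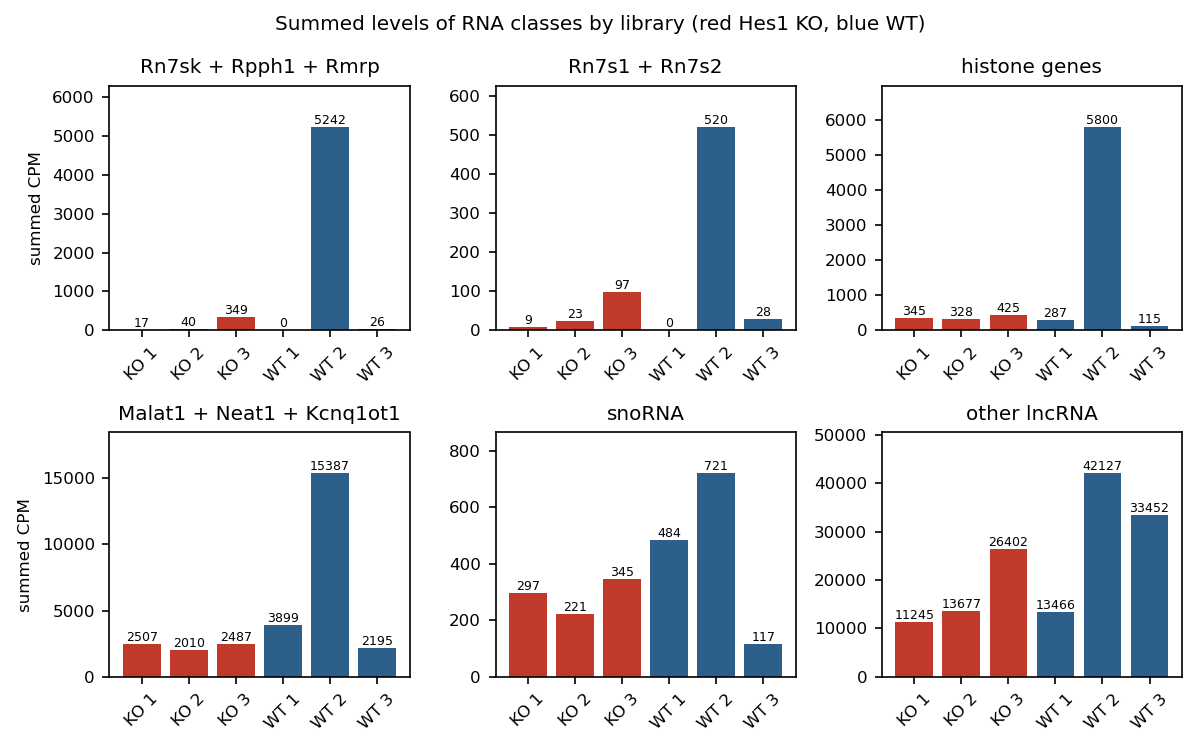
Summed CPM of RNA classes in each library on linear axes that start at 0, with Hes1 KO in red and WT in blue. WT 2 is the highest bar in each panel, at 5242 CPM for Rn7sk, Rpph1 and Rmrp and 5800 CPM for histone genes. KO 3 is second for Rn7sk, Rpph1 and Rmrp (349 CPM), for Rn7s1 and Rn7s2 (96.8 CPM) and for histone genes (425 CPM).

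The neighbours of the short RNAs did not share their pattern. Parp2, a DNA repair enzyme gene next to Rpph1, was at 72.3, 41.9 and 66.3 CPM in Hes1 KO, against 90.7, 56.1 and 19.5 CPM in WT, with WT replicate 2 inside the Hes1 KO range. Ccdc107, next to Rmrp, was at 11.5, 12.6 and 10.7 CPM in Hes1 KO, against 0, 4.99 and 4.87 CPM in WT. C920006O11Rik, a long noncoding RNA gene next to Rn7sk, was at 1.81, 2.98 and 2.53 CPM in Hes1 KO, against 0, 1.72 and 2.56 CPM in WT. In none of the 3 was WT replicate 2 the highest library, and in none was Hes1 KO replicate 3 above both other Hes1 KO libraries.

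The protein partners of the 6 RNAs were compared next, in lists drawn up by function. With all 6 libraries no gene of any list passed, as none of all genes did. Without WT replicate 1, the library of 66167 counts, 7.44% of 16190 genes were higher and 8.09% lower in Hes1 KO (edgeR with Benjamini-Hochberg adjustment). That fit sets 3 Hes1 KO libraries against WT replicates 2 and 3, and with WT replicate 2 left out in place of WT replicate 1 edgeR called 0 of 15595 genes, with 2288 at an unadjusted p under 0.05 (DESeq2 was run with all 6 libraries alone).

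Of the 8 genes of the 7SK complex and P-TEFb, 3 fell and 0 rose, with a median log2 fold change of -0.78 against 0.02 over all genes. Hexim1 and Hexim2, the inhibitors that bind P-TEFb through 7SK RNA, fell by 0.82 (SE 0.18) and 2.08 (SE 0.36; adjusted p = 0.0399 and 0.0312, Benjamini-Hochberg over all genes in edgeR). Hexim1 was at 53.3, 44.1 and 53.7 CPM in Hes1 KO, against 45.3, 97.4 and 34.9 CPM in WT, where 45.3 CPM stands for 3 counts. WT replicate 2 was the highest library and WT replicate 3 the lowest, so in CPM the groups overlapped. Hexim2 was at 4.25, 3.73 and 6.22 CPM in Hes1 KO, against 0, 29.6 and 5.29 CPM in WT. Larp7 and Mepce, the proteins that stay bound to 7SK RNA and protect its ends, had log2 fold changes of 0.43 (SE 0.30) and -0.00 (SE 0.19) and did not pass.

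Of the RNase P and RNase MRP proteins, 10 of 11 were in the table and 9 entered the fit, where 1 rose and 0 fell, with a median of 0.75. Rpp30 rose by 1.06 (SE 0.22; adjusted p = 0.0391, Benjamini-Hochberg over all genes in edgeR). It was at 26.8, 20.7 and 22.9 CPM in Hes1 KO, against 0, 13.8 and 3.96 CPM in WT. The summed level of the proteins was 161, 140.2 and 149 CPM in Hes1 KO, against 121, 91.9 and 42.3 CPM in WT. WT replicate 2, highest for the RNA parts Rpph1 and Rmrp, was thus below every Hes1 KO library for the sum of their proteins. Rpp38 was higher in WT replicate 2, at 5.33 CPM, than in Hes1 KO, at 4.70, 2.27 and 4.04 CPM. Pop1, at 19.6 CPM in WT replicate 2, lay within the Hes1 KO range of 22.0, 10.7 and 16.7 CPM. The others that entered the fit were lower in WT replicate 2 than in every Hes1 KO library.

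Among 11 factors of the RNA polymerase III promoters of this type, 1 rose and 2 fell, with a median of 0.03. Pou2f1, which binds the distal element of such promoters, fell by 2.21 (SE 0.46), and Snapc3, a subunit of the complex that binds their proximal element, fell by 1.37 (SE 0.23; adjusted p = 0.0391 and 0.0305, Benjamini-Hochberg over all genes in edgeR). Pou2f1 was at 48.6, 29.0 and 49.8 CPM in Hes1 KO, against 90.7, 334.8 and 36.5 CPM in WT. Snapc5, another subunit, rose by 1.06 (SE 0.25; adjusted p = 0.0474, Benjamini-Hochberg over all genes in edgeR), with 40.1, 38.7 and 36.7 CPM in Hes1 KO, against 363, 17.4 and 8.26 CPM in WT. With WT replicate 1 and its 24 Snapc5 counts included, the value was -1.21, short of the threshold at adjusted p = 0.579 (Benjamini-Hochberg over all genes, edgeR).

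The partners of the long RNAs were read against the shares given above for all genes. Of 15 paraspeckle proteins 1 fell and 0 rose (median -0.12), and of 15 nuclear speckle proteins 1 fell and 0 rose (median -0.23), a count near the 8.09% of all genes that were lower. Smarca4, a chromatin remodelling ATPase found in paraspeckles, fell by 1.91 (SE 0.43), and Clk1, a kinase of splicing factors, by 1.55 (SE 0.26; adjusted p = 0.0433 and 0.0305, Benjamini-Hochberg over all genes in edgeR). Clk1 was at 243, 222 and 225 CPM in Hes1 KO, against 121, 872 and 222 CPM in WT, so WT replicate 2 alone stood above Hes1 KO.

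Of 12 genes of the imprinted domain around Kcnq1ot1, 10 were in the table and 9 entered the fit, where 1 rose and 0 fell (median 0.42). Tssc4 rose by 1.27 (SE 0.25; adjusted p = 0.0353, Benjamini-Hochberg over all genes in edgeR), at 38.3, 39.8 and 38.5 CPM in Hes1 KO, against 90.7, 21.7 and 5.12 CPM in WT. Its value was 0.44 with all 6 libraries, and with WT replicate 2 left out it was 0.12, neither of which passed. Cdkn1c, a cell cycle inhibitor silenced on the paternal allele, was at 0.994, 1.56 and 2.04 CPM in Hes1 KO, against 0, 2.06 and 1.16 CPM in WT (log2 fold change -0.65, SE 0.49) and did not pass. The counts do not separate the parental alleles.

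Other long noncoding RNAs, 21 of 32 listed, gave 1 that rose and 1 that fell. Morrbid, a regulator of the lifespan of short-lived myeloid cells, rose by 2.79 (SE 0.66), and Firre, which organises nuclear chromatin, fell by 1.31 (SE 0.32; adjusted p = 0.0464 and 0.0495, Benjamini-Hochberg over all genes in edgeR). Morrbid was at 22.9, 37.0 and 20.2 CPM in Hes1 KO, against 45.3, 7.05 and 0.661 CPM in WT. The sum of neutrophil markers was higher in Hes1 KO, and its part was not tested. The log2 fold change of Morrbid was 1.60 with all 6 libraries and 1.26 with WT replicate 2 left out, and those of Hexim1, Hexim2, Snapc3, Pou2f1 and Clk1 with WT replicate 2 left out were -0.54, -1.25, -0.76, -1.11 and -0.76, none of which passed.

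**Figure D4:**
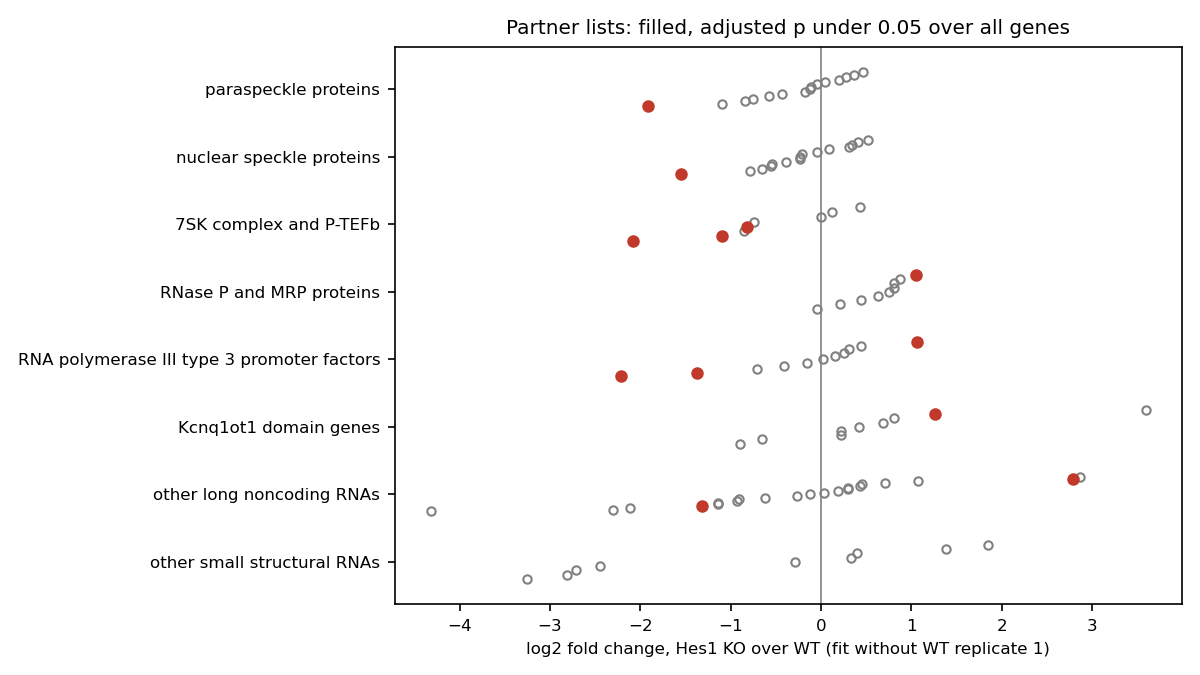
log2 fold change of Hes1 KO over WT for each gene of the partner lists in the fit without WT replicate 1. Filled points passed at an adjusted p under 0.05 over all genes (edgeR), and 3 of 8 genes of the 7SK complex lie among them, all below 0.

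The genes most like each RNA over the 6 libraries were named by the root mean square difference of centred log2 TMM-scaled CPM, among 14755 other genes. Nearest to Rn7sk were Rpph1 at 0.60, Rn7s2 at 1.03, Rmrp at 1.21 and Spred2, a MAP kinase pathway inhibitor, at 1.44, so the 3 nearest genes were RNA polymerase III products. Nearest to Malat1 were Gem (0.16), a small GTPase, Irs2 (0.16), an insulin receptor adaptor, F630048H11Rik (0.19) and Gm32059 (0.20). Irs2 was at 27.4, 28.7 and 34.3 CPM in Hes1 KO, against 45.3, 228 and 26.8 CPM in WT. Nearest to Neat1 were Psd (0.08), Vti1a (0.11), Vps13d (0.13) and Gatad2b (0.15). These 6 points share their libraries and depth, so the distances are a description.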

How the data were processed

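Poly(A)-selected RNA of 3 Hes1 KO and 3 WT libraries was sequenced, and the authors deposited whole-number read counts for 26988 gene symbols, made with featureCounts per the name of the table. Per the submitters' processing notes the build was GRCm39 and edgeR and limma were used. Aligner, annotation and strand setting were not given in the sources used here.

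Groups came from the sample titles. Counts were filtered with filterByExpr (14756 genes kept), scaled by TMM and tested with edgeR 4.0.16 (R 4.3.3) by the quasi-likelihood test with the legacy option off and Benjamini-Hochberg adjustment over all genes, at 0.05. SE is the absolute log2 fold change over sqrt(F). CPM are counts per library total without TMM factors unless stated. The fit without WT replicate 1 kept 16190 genes. Total counts per library were 66167 to 22131465. Wilson intervals used scipy 1.17.1. The members, lists and tests were chosen with earlier results of these data known. Named were the 6 RNAs, up to 4 passing genes of each list or else its 2 most abundant, and the 4 nearest genes of Malat1, Neat1 and Rn7sk (1 listed gene is not reported here); Larp7, Mepce, Cdkn1c, Terc, Rnu12, Rnu11, Vaultrc5 and the neighbouring and histone genes were added after their values were seen. Classes and spans came from RefSeq GRCm38.p6 by symbol (96.6% of genes matched). The fit was tested on simulated data. Alternatives were RLE scaling, library size alone, no filter, DESeq2 1.42.0, the legacy option, a replicate block, each library left out, WT replicate 2 or 3 alone, and totals without erythroid or mitochondrial genes.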

Additional observations from a re-analysis of the deposited data

How the results depend on the processing

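The count of genes called was 0 in each direction under every edgeR alternative with 6 libraries. DESeq2 called 214 higher and 618 lower, with a median log2 fold change of -1.12 over all genes (0.03 in edgeR). Leaving out 1 library gave 0 to 1204 genes higher and 0 to 1309 lower, the highest values without WT replicate 1. Over these fits called genes ranged from 0 to 1 for the paraspeckle, nuclear speckle, RNase P and MRP and Kcnq1ot1 domain lists, 0 to 2 for other long noncoding RNAs, and 0 to 3 for the 7SK complex and the promoter factors. DESeq2 called 1 promoter factor and 1 other long noncoding RNA. The cause of these differences was not tested. Over 14 alternatives the log2 fold change ranged from -2.62 to -1.14 for Malat1, -1.33 to -0.41 for Neat1, -2.60 to -0.68 for Kcnq1ot1, -5.44 to 1.42 for Rn7sk, -6.57 to 1.06 for Rpph1 and -5.07 to 1.96 for Rmrp. With WT replicate 2 or 3 as the only WT library, that library is assumed to vary like Hes1 KO. With the replicate block the values were -1.49 for Malat1, -0.67 for Neat1, -1.02 for Kcnq1ot1, 0.08 for Rn7sk, -0.60 for Rpph1 and -0.58 for Rmrp, and 0 genes were called. Deviations of same-numbered libraries correlated at 0.15, 0.01 and 0.24 across genes. Replicates 1 and 3 correlated best with their own number and neither replicate 2 did. With 3 libraries per group these values cannot tell whether the numbers pair the libraries. Library size alone in place of TMM gave -1.74 for Malat1 and moved the median of all genes to 0.26. The share of counts of the 6 RNAs in WT replicate 3 was 0.222%, and 0.389% of the total without erythroid markers. In WT replicate 1 depth hid any short RNA below 45.3 CPM.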
